A study of Xenopus laevis with 24 samples.

Results

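Foregut explants treated with BMS493 were compared directly with foregut explants of rfx6 morphants at stage NF33 of Xenopus laevis development. Stages follow the Nieuwkoop and Faber (NF) series. The comparison used all 3 libraries of each arm, 6 of the 24 libraries in the series, and no control library entered the test. All listed genes were eligible: of 44478 genes, 25732 (57.9%) had enough counts in these 6 libraries to be tested. Every explant came from wild-type embryos of the NXR_0031 stock, held foregut mesoderm and endoderm, was cut at NF15 and was cultured at 15 °C. BMS493 explants received 250 nM BMS493 from dissection onward. The rfx6 morphants came from embryos injected at the 2-cell stage with 2.5 ng of a translation-blocking morpholino against rfx6. Control explants, used below as a further point of comparison, carried 2.5 ng of a mismatch morpholino and were kept in 0.1% DMSO. Each replicate was a pool of 8 explants. The labels describe the 3 pools of a condition as biological replicates but do not name the parents of the embryos, so p-values measure the spread between such pools. The labels do not state whether BMS493 explants also carried a mismatch morpholino, or whether DMSO was given to rfx6 morphants, so effects of an injected oligonucleotide or of the vehicle cannot be told apart from those of the agents.

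Retinoic acid is a derivative of vitamin A that binds nuclear receptors on DNA. In vertebrate embryos it is made largely by mesoderm and patterns the neighbouring endoderm, including the regions that form pancreas, lung and other foregut organs. BMS493 is an inverse agonist of retinoic acid receptors: it holds them in the state that represses their target genes. Rfx6 is a transcription factor of the RFX family, known in mouse and human for its part in forming the endocrine cells of the pancreas and gut. A translation-blocking morpholino stops the protein from being made and need not lower the RNA, so the RNA of rfx6 would not check this knockdown.

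The 6 libraries held 19489502 to 31005048 counts, within the range of 19433955 to 31005048 over all 24. Across genes, the correlation of log2 levels ran from 0.989 to 0.991 for 2 libraries of the same arm and from 0.952 to 0.958 for a BMS493 and an rfx6 library. Genes are listed under numbered identifiers that the files do not pair with symbols, so no result below carries a gene name. The tissue named in the labels could not be checked against marker genes for the same reason. In pieces of whole tissue, fewer cells of a type and less RNA per cell cannot be told apart. Xenopus laevis carries many genes as near-identical copies that can share reads, so values of single identifiers are uncertain to that extent.

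At NF33 about as many genes were higher as lower in BMS493 explants relative to rfx6 morphants, and most of these differences were small. Of the genes tested, 13483 (52.4%) were called at an adjusted p under 0.05 by edgeR's quasi-likelihood test, 6568 (25.5%) higher and 6915 (26.9%) lower in BMS493 explants. Among the called genes, 7857 (58.3%) differed by less than 1.5-fold. A difference of at least 2-fold was called for 2654 genes (10.3%), of which 1276 (4.96%) were higher and 1378 (5.36%) lower. At 4-fold or more the numbers were 298 higher and 266 lower, at 8-fold or more 88 and 84, and at 16-fold or more 37 and 35. The median log2 fold change over all genes tested was -0.0051. The near-even split depended on the test and unit: limma on log2(TPM + 1) called 3932 genes higher and 6681 lower, and among genes at least 2-fold different 354 higher and 636 lower. The biological coefficient of variation, the spread between pools of an arm beyond counting error, was 4.37%. The 3 BMS493 libraries lay entirely above or entirely below the 3 rfx6 libraries for 14865 genes, 57.8% of those tested. For 68 of the 2654 genes at least 2-fold different the libraries of the arms overlapped.

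**Figure D1:**
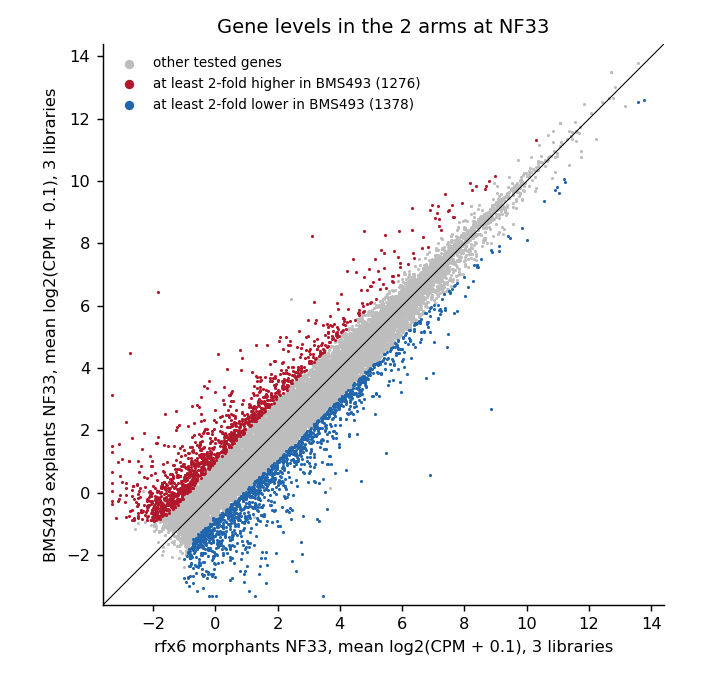
Mean log2(CPM + 0.1) of each tested gene in BMS493 explants (vertical axis) and in rfx6 morphants (horizontal axis) at NF33, 3 libraries each. Red points are the 1276 genes at least 2-fold higher in BMS493 explants, blue points the 1378 at least 2-fold lower, grey points all other tested genes, and the line marks equal levels.

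Levels are given in CPM, counts scaled for library size and composition. They are not scaled for transcript length. The 1276 genes that were at least 2-fold higher had a median of 2.56 CPM in BMS493 explants and 0.774 CPM in rfx6 morphants, with a median log2 fold change of 1.43. The 1378 genes that were at least 2-fold lower had a median of 1.26 CPM in BMS493 explants and 3.67 CPM in rfx6 morphants, with a median log2 fold change of -1.36. The median over all genes tested was 9.06 CPM across the 6 libraries. Of the higher genes 58 reached 100 CPM in BMS493 explants, and of the lower genes 69 reached it in rfx6 morphants. Over all 25732 genes tested, 1680 reached 100 CPM in their higher arm. The share of genes called rose with the level in the higher arm, from 22.6% of 2643 genes under 1 CPM to 78.2% of 1680 genes at 100 CPM or more. The share at least 2-fold different ran the other way at the low end, with 20.6% under 1 CPM, 14% between 1 and 10 CPM and 5.07% between 10 and 100 CPM, and 7.56% at 100 CPM or more. A gene had to reach the count filter in 1 arm only. Of 886 tested genes that passed it through BMS493 explants alone, 477 were at least 2-fold higher. Of 809 that passed it through rfx6 morphants alone, 422 were at least 2-fold lower. For such genes a large difference is partly set by the filter, so the high share at low levels is partly built in. Genes that passed in both arms numbered 23474, of which 792 were at least 2-fold higher and 940 at least 2-fold lower.

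Summed over genes, the lower list differed by more CPM between the arms than the higher list. The higher genes together took 31976, 34038 and 32064 CPM in the BMS493 libraries, against 10923, 11518 and 11278 CPM in the rfx6 libraries. The control libraries, at 29117 ± 38.2 CPM (SD, n = 3), stood close below the BMS493 libraries. The lower genes together took 29708, 27161 and 28614 CPM in the BMS493 libraries, against 67993, 66340 and 65563 CPM in the rfx6 libraries. Here too the controls, at 37833 ± 1027 CPM, stood nearer BMS493 explants. These sums describe genes chosen on the same libraries and carry no test. The 10 genes with the largest difference held 29.9% of the summed difference of the higher list and 58.2% of that of the lower list. The largest 2 differences in the lower list came from a pair of abundant genes. They averaged 6248 ± 392 and 5969 ± 362 CPM in BMS493 explants, against 13820 ± 374 and 12250 ± 540 CPM in rfx6 morphants and 7708 ± 329 and 6767 ± 362 CPM in controls (SD, n = 3).

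Among genes with at least 5 CPM in the higher arm and no overlap between libraries, XBXL10_1g31917 was the most strongly higher in BMS493 explants. It stood at 9.77, 8.52 and 8.12 CPM in the BMS493 libraries and at 0 counts in all 3 rfx6 libraries, at least 240-fold higher against a floor of 3 counts over the group (edgeR adjusted p = 4.12e-35). Controls at NF33 were close to the morphants, at 0.186 ± 0.0718 CPM. At NF25 the gene was present in every group, at 14.5 ± 0.466 CPM in BMS493 explants, 45.6 ± 3.33 CPM in rfx6 morphants and 14.5 ± 1.38 CPM in controls. At NF38 rfx6 morphants held 7.05 ± 0.568 CPM, against 2 counts over the 3 control libraries. The morphants thus had it at NF25 and NF38 and lacked detectable counts at NF33.

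The second gene, XBXL10_1g20751, had a similar course. It stood at 24, 19.9 and 22.4 CPM in the BMS493 libraries at NF33, against 0.0977, 0 and 0.0686 CPM in the rfx6 libraries. This gave a log2 fold change of 8.66 (edgeR adjusted p = 6.94e-46), with 7.985 to 9.198 when 1 library was left out. The rfx6 libraries held 4 counts in all, and controls held 0.0493 ± 0.0201 CPM. At NF25 the values were 64.8 ± 8.62 CPM in BMS493 explants, 269 ± 20.5 CPM in rfx6 morphants and 70.0 ± 7.15 CPM in controls. At NF38 it stood at 10.3 ± 0.566 CPM in rfx6 morphants, against 1 count over the control libraries.

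In the other direction, XBXL10_1g19313 was found in rfx6 morphants and hardly elsewhere. It stood at 0 counts in all 3 BMS493 libraries at NF33, against 10.5, 11.1 and 11 CPM in the rfx6 libraries, at least 287-fold lower (edgeR adjusted p = 2.60e-38). The 3 NF33 controls also held 0 counts. Morphants held 7.72 ± 0.632 CPM already at NF25, against 0.118 ± 0.102 CPM in BMS493 explants and 0.188 ± 0.0394 CPM in controls, and 7.90 ± 0.304 CPM at NF38.

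The second lower gene, XBXL10_1g38946, stood at 1.27, 1.49 and 1.36 CPM in the BMS493 libraries, against 122, 116 and 115 CPM in the rfx6 libraries. This gave a log2 fold change of -6.45 (SE 0.08, with edgeR adjusted p = 3.01e-67). Controls at NF33, at 1.58 ± 0.483 CPM, did not stand apart from BMS493 explants in range. Morphants exceeded the other groups at NF25 too, with 19.5 ± 0.840 CPM against 0.551 ± 0.196 CPM in BMS493 explants and 0.328 ± 0.0708 CPM in controls. At NF38 morphants held 22.3 ± 1.61 CPM and controls 4.02 ± 0.217 CPM. For both lower genes the NF33 difference was therefore a high level in rfx6 morphants, whereas for both higher genes it was a level in BMS493 explants that neither morphants nor controls held at that stage.

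**Figure D2:**
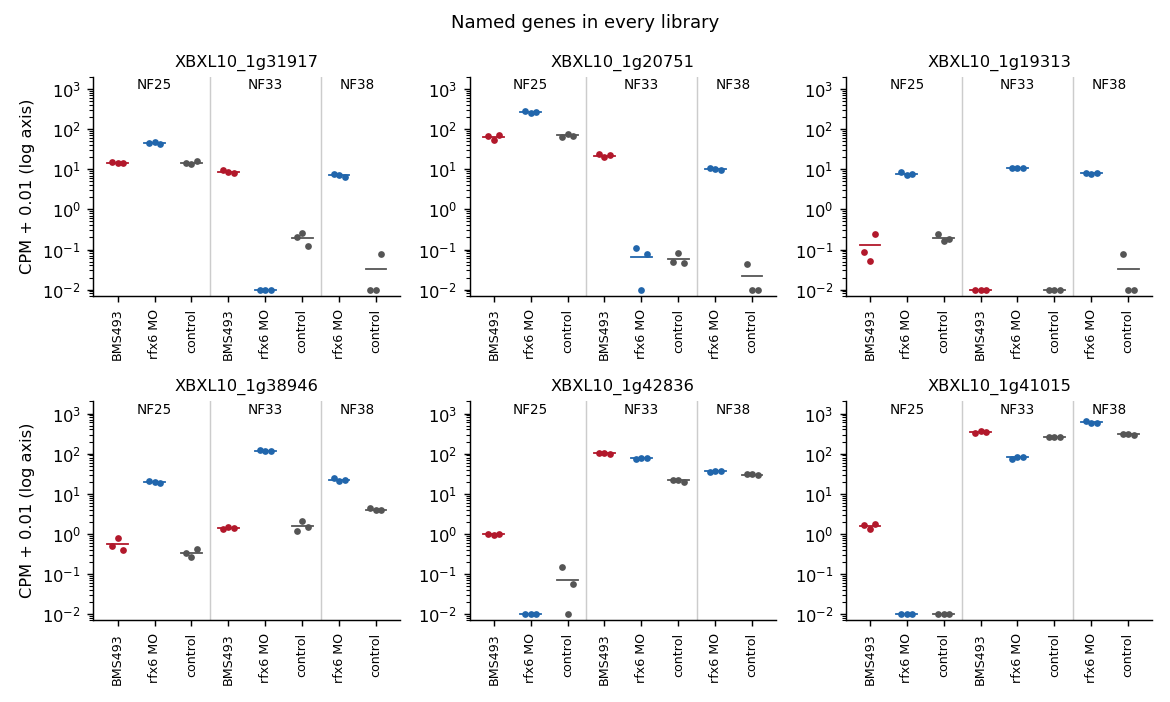
CPM + 0.01 on a log axis for 6 genes in every library of the 8 groups, ordered by stage; points are libraries and lines are means of 3. The upper left pair, XBXL10_1g31917 and XBXL10_1g20751, is high in BMS493 explants at NF33 and at or near 0 in rfx6 morphants and controls, and XBXL10_1g19313 and XBXL10_1g38946 are high in rfx6 morphants.

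Control explants of NF33 were set against the midpoint of both arms, to place the control level beside each difference. This contrast called 45.0% of 26263 genes, 21.6% with the control above the midpoint and 23.4% with it below. Among the 1276 genes higher in BMS493 explants, the control lay nearer BMS493 explants for 586 (45.9%) and nearer rfx6 morphants for 272 (21.3%), and was not called for 418 (32.8%). The 586 genes had a median log2 fold change against controls of -0.16 in BMS493 explants and -1.82 in rfx6 morphants: morphants stood below a level that BMS493 explants and controls shared more closely. The 272 genes had medians of 2.96 in BMS493 explants and 1.09 in rfx6 morphants, both above the control level and the larger one under BMS493. The same libraries sorted the genes, so a control nearer the named arm is built into these medians.

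Among the genes lower in BMS493 explants, too, the control was more often called nearer BMS493 explants. It lay nearer BMS493 explants for 598 of 1378 (43.4%), nearer rfx6 morphants for 190 (13.8%), and was not called for 590 (42.8%). The medians against controls were 0.05 in BMS493 explants and 1.52 in rfx6 morphants for the 598 genes, and -1.90 and -0.14 for the 190. Over all genes in each list, the medians against controls were 0.40 in BMS493 explants and -1.07 in rfx6 morphants for the higher genes, and -0.37 and 0.96 for the lower genes. The medians of the sorted genes again come from the libraries that sorted them. Both sets of fold changes share the control libraries, so their sizes are given side by side without a test of one against the other. The fitted control level lay between the arms for 642 higher genes (50.3%) and 887 lower genes (64.4%). It lay above both arms for 379 higher and 125 lower genes, and below both for 255 higher and 366 lower genes.

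Most genes at least 2-fold different between the arms also differed between the control explants of NF25 and NF38. Stage genes were taken from the controls of NF38 and NF25, libraries that the arm comparison did not use. Of 25891 genes tested there, 6285 (24.3%) were called at least 2-fold higher at NF38 and 4075 (15.7%) at least 2-fold lower. Of the 1276 genes higher in BMS493 explants at NF33, 961 (75.3%) were such rising genes, against 21.8% of all genes tested between the arms. A further 46 (3.61%) were falling genes, against 14.8% of all genes. Of the 1378 genes lower in BMS493 explants, 701 (50.9%) were falling genes and 164 (11.9%) rising genes. Taken whole, the 5608 rising genes tested between the arms had a median log2 fold change of 0.30 and the 3810 falling genes one of -0.53, against -0.0043 for the 16314 others. The stage of culture and the labels' batch tag are the same, so stage and batch cannot be told apart in this grouping.

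**Figure D3:**
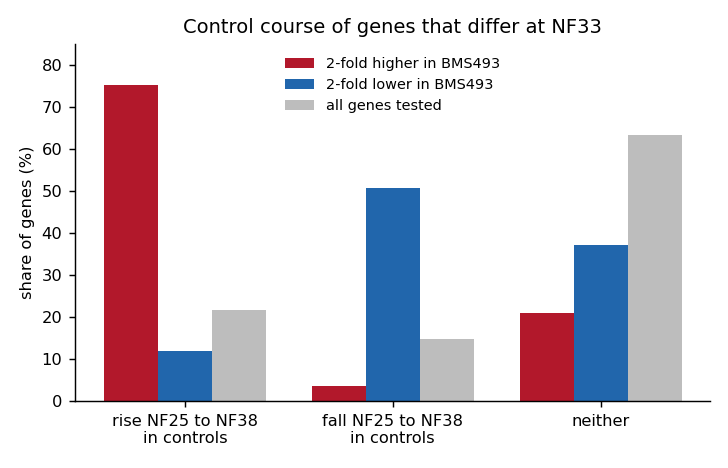
Share (%) of genes that were 2-fold or more higher in BMS493 explants (red, n = 1276), at least 2-fold lower (blue, n = 1378) and of all 25732 genes tested (grey) that rise, fall or do neither between the NF25 and NF38 controls. Rising genes make up 75.3% of the higher list and 11.9% of the lower list.

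The shares were as uneven among genes detected in both arms. Among genes that passed the count filter in both arms, rising genes made up 644 (81.3%) of the higher list against 20.9% of those tested, and falling genes 561 (59.7%) of the lower list against 14.7%. The levels show the course. The 961 higher rising genes had median levels at NF25 of 0.265 CPM in BMS493 explants, 0.217 CPM in rfx6 morphants and 0.195 CPM in controls. At NF33 the medians were 3.26 CPM in BMS493 explants, 1.04 CPM in rfx6 morphants and 2.36 CPM in controls. At NF38 morphants reached 5.51 CPM and controls 5.80 CPM. The rise in controls and the gap between the arms at NF33 are set by the choice of these genes. Beyond that, BMS493 explants and rfx6 morphants also had low medians at NF25, and the morphant median was near that of controls at NF38. The NF38 controls helped choose these genes, so that comparison is not independent of the choice. Similar medians do not mean that single genes were alike.

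The 701 lower falling genes had medians at NF25 of 11.4 CPM in BMS493 explants, 15.6 CPM in rfx6 morphants and 12.2 CPM in controls. At NF33 the medians were 2.33 CPM in BMS493 explants, 6.69 CPM in rfx6 morphants and 3.05 CPM in controls. At NF38 morphants stood at 3.21 CPM and controls at 1.51 CPM, so the morphant median was still the higher one. The fall in controls and the NF33 gap are again set by the choice of genes. The NF38 controls helped choose these genes for a low level at NF38, so the NF38 gap is partly built in too. Of the 586 higher genes with the control nearer BMS493 explants, 518 were rising genes, and of the 272 with the control nearer rfx6 morphants 174 were. Of the 598 lower genes with the control nearer BMS493 explants, 371 were falling genes, against 56 of the 190 nearer rfx6 morphants. Genes called neither rising nor falling made up 269 (21.1%) of the higher list and 513 (37.2%) of the lower list, against 63.4% of all genes tested. They include any that were not tested over the control stages, so they were not shown to be unchanged.

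**Figure D4:**
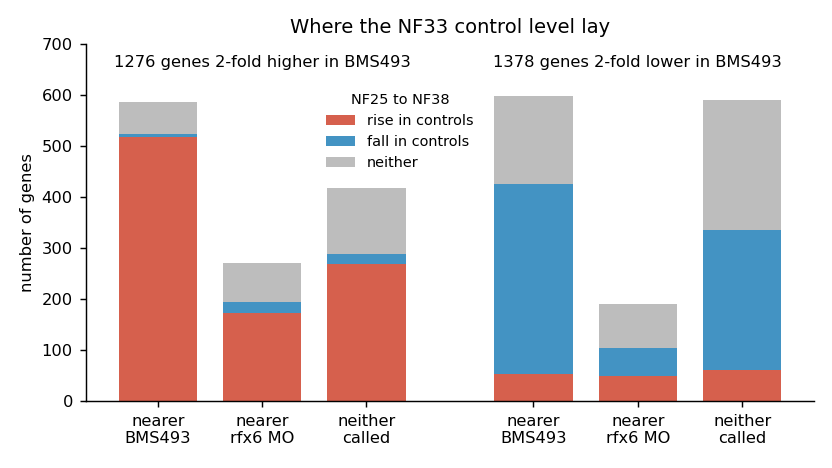
Number of genes at least 2-fold higher (left, 1276) and lower (right, 1378) in BMS493 explants, by whether the NF33 control was called nearer BMS493 explants, nearer rfx6 morphants or neither. Colours give the course between the NF25 and NF38 controls; the tallest single segments are the 518 rising genes among the higher list and the 371 falling genes among the lower list, both with the control nearer BMS493 explants.

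A small group went against this order: 46 genes were at least 2-fold higher in BMS493 explants at NF33 although they fall over the control stages. Their medians at NF25 were close, at 3.84 CPM in BMS493 explants, 4.01 CPM in rfx6 morphants and 3.91 CPM in controls. At NF33 they stood at a median of 2.86 CPM in BMS493 explants, 0.602 CPM in rfx6 morphants and 0.639 CPM in controls. The gap between the arms at NF33 and the fall in controls are set by the choice of these genes. In 27 of them both rfx6 morphants and controls were under 1 CPM at NF33. Low morphant levels were common in the whole higher list, with rfx6 morphants under 1 CPM for 702 of 1276 genes. Of the 46 genes, 24 passed the count filter in both arms. XBXL10_1g31917 and XBXL10_1g20751, described above, belong to this group. The opposite group, 164 genes lower in BMS493 explants although they rise in controls, had NF33 medians of 0.980 CPM in BMS493 explants, 3.03 CPM in rfx6 morphants and 1.56 CPM in controls. Here too the gap between the arms is set by the choice of genes.

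The same arms at NF25, the earlier of the sampled stages with both arms, showed that the NF33 differences were only partly present there. Between BMS493 explants and rfx6 morphants at NF25, edgeR called 43.2% of 24407 genes, 21.4% higher and 21.8% lower in BMS493 explants, and 9.58% differed at least 2-fold. Of the 1276 genes higher at NF33, 612 had enough counts to be tested at NF25. There, 229 (37.4%) were called higher and 126 (20.6%) lower in BMS493 explants, with a median log2 fold change of 0.33. Of the 1378 genes lower at NF33, 1217 were tested at NF25, where 613 (50.4%) were called lower and 126 (10.4%) higher, with a median of -0.36. For calls of any size, the share of higher genes called in the opposite direction was thus close to the 21.8% of all genes called that way. At 2-fold or more it was not: 92 of the 612 stood in the opposite direction, a larger share than the 1213 of all 24407 genes.

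**Figure D5:**
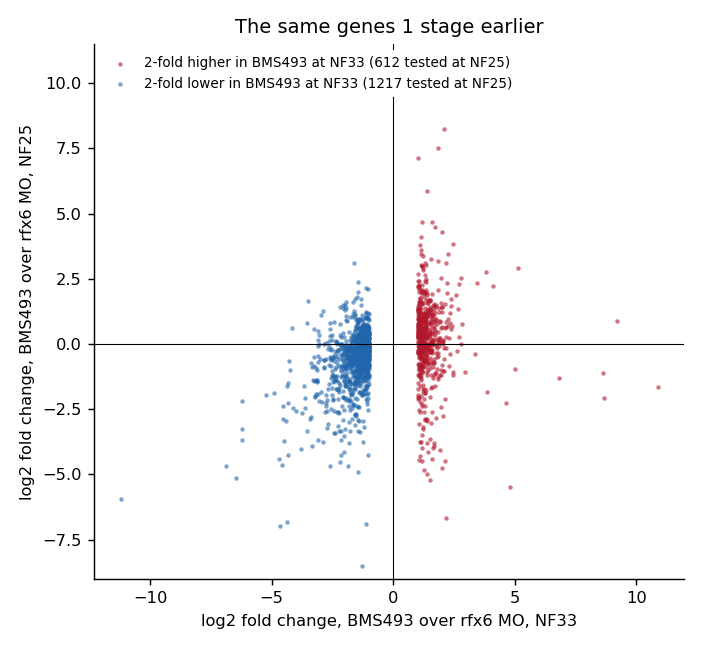
Log2 fold change of BMS493 explants over rfx6 morphants at NF25 (vertical axis) and NF33 (horizontal axis) for the genes at least 2-fold different at NF33 that were also tested at NF25. Red points are the 612 higher genes and blue points the 1217 lower genes at NF33; the lower genes lie mostly below 0 at NF25, and the higher genes spread over both sides.

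The change of the difference between stages was tested over 12 libraries, and because each stage has its own batch tag this test runs across batch tags. It called 9644 of 26793 genes (36.0%), with a log2 fold change that was higher at NF33 for 4081 (15.2%) and higher at NF25 for 5563 (20.8%). The size of this imbalance depended on the scaling: the numbers were 4440 and 5190 with DESeq2 size factors, and 3084 and 6351 with total library size. The NF33 libraries that chose the higher and lower genes also enter this test, so a larger difference at NF33 is partly built into both lists and the next counts are a description. Among the 1276 higher genes the difference was called larger at NF33 for 510 and changed the other way for 44. Among the 1378 lower genes the numbers were 859 and 42. In the fit of those 12 libraries 781 genes were at least 2-fold different at both stages. That fit held all 1276 higher genes, also those with too few counts at NF25 for the fit of the NF25 libraries alone. How many of the 781 had so few counts at NF25 was not counted. The direction was the same for 583 of them, 237 higher and 346 lower in BMS493 explants at both stages. Of the remainder, 154 were higher in BMS493 explants at NF33 and lower at NF25, and 44 were lower at NF33 and higher at NF25. In the fit of the NF25 libraries alone, 145 of the 612 higher genes tested were at least 2-fold higher and 92 lower. Of the 1217 lower genes tested, 275 were at least 2-fold lower there and 35 higher. Over all 24407 genes of that fit the numbers were 1124 higher and 1213 lower.

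The most extreme changes between stages included the 2 higher genes named first: XBXL10_1g31917 and XBXL10_1g20751 were lower in BMS493 explants than in rfx6 morphants at NF25, with log2 fold changes of -1.66 (SE 0.08) and -2.05 (SE 0.10), and higher at NF33. On the other side, XBXL10_1g42836 had a far smaller ratio at NF33 than at NF25. It stood at 0.988, 0.940 and 0.977 CPM in the BMS493 libraries at NF25, against 0 counts in the rfx6 libraries and 0.0612 ± 0.0711 CPM in controls. At NF33 it reached 103, 104 and 100 CPM in the BMS493 libraries, against 71.4, 77.1 and 79.8 CPM in the rfx6 libraries, a log2 fold change of 0.40 (SE 0.04), with controls at 21.5 ± 1.17 CPM. Both arms thus exceeded the controls at NF33, and at NF38 morphants held 36.8 ± 1.17 CPM and controls 30.1 ± 0.542 CPM.

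XBXL10_1g41015 behaved likewise at NF25, with 1.63, 1.33 and 1.72 CPM in the BMS493 libraries against 0 counts in the rfx6 libraries and in the controls. At NF33 it stood at 330, 372 and 345 CPM in the BMS493 libraries, against 75.4, 82.8 and 82.0 CPM in the rfx6 libraries, a log2 fold change of 2.09 (SE 0.04, with an edgeR adjusted p = 1.30e-50). Controls held 260 ± 6.10 CPM, between the arms and nearer BMS493 explants. At NF38 the order of morphants and controls had turned, with 605 ± 25.4 CPM in rfx6 morphants and 305 ± 7.54 CPM in controls.

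At NF38 rfx6 morphants could be set against controls only, and these libraries took no part in choosing the genes. There edgeR called 53.0% of 26447 genes, 27.5% higher and 25.5% lower in morphants. Of the genes lower in BMS493 explants than in morphants at NF33, 1192 were tested at NF38, and 810 of them (68.0%) were called higher in morphants than in controls, against 79 (6.63%) called lower. Their median log2 fold change was 0.95. Of the genes higher in BMS493 explants at NF33, fewer were called higher than lower: of 1208 tested, 354 (29.3%) were called higher and 425 (35.2%) lower in morphants, with a median of -0.06. At 2-fold or more the balance differed: 11.1% of all genes were called, 9.05% higher and 2.08% lower in morphants. By that threshold 556 of the 1192 lower genes tested stood higher and 21 lower in NF38 morphants. Of the 1208 higher genes tested, 164 stood higher and 104 lower, against 2393 and 549 of all 26447 genes. Both shares exceeded those of all genes, and the excess was larger for genes lower in morphants.

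The ratio of the estimated count to TPM follows the effective transcript length that the quantification gave a gene, and would move if the mix of its transcripts moved. It was compared for 15543 genes with at least 100 counts and 1 TPM in all 6 libraries. Limma called 2 genes (0.0129%) at an adjusted p under 0.05, while 717 (4.61%) had an unadjusted p under 0.05. XBXL10_1g30880 had relative lengths of 3.32, 3.30 and 3.32 in the BMS493 libraries, against 2.68, 2.72 and 2.73 in the rfx6 libraries, where 1 is the median gene of a library. Its log2 ratio was 0.29 (limma adjusted p = 0.00935), and its level differed little, with a log2 fold change of 0.21. XBXL10_1g28800 had 1.46, 1.45 and 1.45 in the BMS493 libraries, against 1.59, 1.58 and 1.58 in the rfx6 libraries, a log2 ratio of -0.12 (limma adjusted p = 0.00989). With replicate number as a block neither call held and 0 genes were called, and between 0 and 9 were called when 1 library was left out.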

How the data were processed

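RNA was sequenced from 24 pools of explants, 3 for each of 8 groups, and the labels' protocols name a stranded mRNA kit. The authors deposited estimated counts per gene, stored as whole numbers, and TPM, which also corrects for transcript length. RSEM 1.3.0 and Bowtie2 are named, with no role given, in the submitters' processing notes. Genome build, annotation and strand setting of the counting: not given in the sources used here. A row without a gene identifier held 0 counts and was left out. Samples were grouped by title. The descriptions of rfx6 NF33 replicates 2 and 3 also hold the name of replicate 1 in another line; title and library name decided.

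Tests used edgeR 4.0.16 (R 4.3.3) on the counts, rounded to whole numbers: filterByExpr on the libraries of each comparison (minimum count 10, minimum total count 15), TMM scaling, glmQLFit with robust estimates and glmQLFTest, 1 mean per group and no covariate. A gene was called when its p, adjusted by Benjamini-Hochberg across every gene in the fit, was under 0.05, and counted separately at 2-fold or more. An SE printed beside a log2 fold change is the size of that change divided by the square root of F in its test. None is printed where an arm held 0 or few counts. Levels are CPM on a TMM scale over the 24 libraries. Count-to-TPM ratios, centred on each library's median, were tested with limma 3.58.1. The fit was run on simulated data with 1 spread for all genes and few changed genes, unlike the real data. For the NF33 difference it recovered 97% of 2-fold and 78.5% of 1.5-fold changes. For the change between stages it recovered 86.2% and 50%. Alternatives were DESeq2 1.42.0 and its size factors, total library size, another TMM reference library, other filters, limma on log2(TPM + 1), more libraries in the fit, a replicate block and leaving out each library in turn.

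Named genes are the first 2 in each direction by log2 fold change among genes called, at least 2-fold different, without overlap and with at least 5 CPM in the higher group. The same was done for the change between stages, with no demand on overlap, and for the count-to-TPM ratio. The pair of abundant genes was chosen after its values were seen. Of the 44478 identifiers, 1 matched an entry of a RefSeq table of 44456 genes (assembly Xenopus_laevis_v10.1), and that entry is itself a numbered label. The planned marker and pathway lists were therefore not run. The members, comparisons and lists were chosen with earlier results of these data known. Within an arm, every 2 libraries differed by more than sampling noise. Correlations of same-numbered libraries' deviations from their arm means were between -0.012 and 0.032. No pairing by replicate number was seen, but noise also makes such correlations small, so they cannot exclude one.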

Additional observations from a re-analysis of the deposited data

Results flagged for a closer look

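The difference between BMS493 explants and rfx6 morphants changed between NF33 and NF25 for 9644 of the 26793 genes tested, by a test of the change itself (edgeR quasi-likelihood test, adjusted p under 0.05). The genes named for it are the first 2 in each direction by the size of that change, among genes with at least 5 CPM in 1 of the 4 groups. The fitted log2 fold change was higher at NF33 than at NF25 by 12.45 (edgeR adjusted p = 3.21e-32) for XBXL10_1g31917 and by 10.72 (edgeR adjusted p = 5.83e-11) for XBXL10_1g20751. It changed by -7.23 (edgeR adjusted p = 2.82e-11) for XBXL10_1g42836 and by -6.23 (edgeR adjusted p = 3.12e-08) for XBXL10_1g41015. In XBXL10_1g31917 the rfx6 libraries of NF33 held 0 counts, and in XBXL10_1g42836 and XBXL10_1g41015 the rfx6 libraries of NF25 did, so these 3 fitted values depend on the prior count and are not bounds. The change for XBXL10_1g20751 rests on 4 counts over the 3 rfx6 libraries of NF33. Stage and batch tag cannot be told apart in any of them.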

How the results depend on the processing

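Limma on log2(TPM + 1), where low genes move less, gave 3932 genes called higher, 990 at least 2-fold different (354 higher, 636 lower), control nearer BMS493 and nearer rfx6 morphants for 193 and 100 higher and 364 and 83 lower genes, 281 rising and 22 falling among the higher, 34 rising and 375 falling among the lower, 73 called the same way and 44 the opposite way at NF25 among the higher and 305 and 54 among the lower, and 136 above and 140 below controls in NF38 morphants among the higher and 444 and 34 among the lower. A minimum count of 50, which tests fewer genes, gave 1553 (691 and 862), 169 higher genes with the control nearer rfx6 morphants, 532 rising and 22 falling among the higher, 78 rising among the lower, 136 and 68 at NF25 among the higher, 220 above controls at NF38 among the higher and 48 below among the lower. Genes that passed the filter in both arms, a restriction chosen after seeing the data, gave 1732 (792 higher), 24 falling among the higher and 107 rising among the lower. With no filter 82 of the higher genes were falling genes. Total library size put the rfx6 sums at 11755 CPM for the higher and 69693 CPM for the lower genes, and moved the median change between stages over all genes to -0.113, against -0.0448 with TMM. The cause of these shifts beyond the filters was not tested. The count-to-TPM ratio was called for 4 genes at a minimum count of 300, for 0 with the replicate block and for 0 to 9 without 1 library each.

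The comparison of rfx6 morphants with controls at NF38 and its alternatives were added after seeing the data. For the genes named for the NF33 difference or for the change between stages, no direction turned under any alternative run. Their 72 values without 1 library and their 72 under other settings all stayed past the threshold. Their sizes were smaller under limma on log2(TPM + 1), a scale that compresses low values: the NF33 log2 differences were 4.09 for XBXL10_1g31917, 1.22 for XBXL10_1g20751, -2.23 for XBXL10_1g19313 and -5.67 for XBXL10_1g38946, and the changes between stages 5.68 for XBXL10_1g31917, 3.01 for XBXL10_1g20751, -0.75 for XBXL10_1g42836 and -0.43 for XBXL10_1g41015. Leaving out 1 library gave 12214 to 12855 genes called and 2660 to 2787 at least 2-fold different. DESeq2 called 5779 higher and 5820 lower. Replicate numbers showed no clear pairing, replicate 1 alone correlating best with its own number. With the replicate block 13561 genes were called and 2664 were at least 2-fold different. Limits: each arm has 3 pools from unnamed parents, 1 agent each and no shared vehicle stated; identifiers carry no names; and genes under about 1 CPM are held by few counts.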

Other observations

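Some values concern identifiers more than genes. Among the tested identifiers, 39 fell into 14 sets whose members held the same counts in all 24 libraries, and 12 of the identifiers at least 2-fold different fell into 3 such sets, so the gene counts above include a few copies. In a run of 18 neighbouring identifier numbers, picked out after its values were seen, 13 had such a copy. Of the 17 tested, 8 were called at least 2-fold different at NF33, against 10.3% of all genes tested, but copies among them repeat the same counts. Together this run took 4.05%, 5.63% and 3.39% of the counts in the BMS493 libraries, against 2.74%, 2.48% and 2.32% in the rfx6 libraries and 2.94% ± 0.592 in controls (SD, n = 3). The arms did not overlap. Because the run was picked out on these same libraries, no test is given. The run was noticed in comparing BMS493 replicates: chi-square per degree of freedom was 6.03 and 8.58 for the BMS493 pairs with replicate 2 and 2.59 for the other pair, against 2.42 to 3.44 for pairs of rfx6 libraries. With the run left out it was 3.41, 2.88 and 1.98 for the BMS493 pairs, against 2.35 to 3.08 for the rfx6 pairs.

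The direction of neighbouring identifier numbers was counted as a description, without a test. After a gene at least 2-fold higher in BMS493 explants, the next number was also higher in 114 of 863 pairs (13.2%), against 4.61% of all 18290 pairs, and lower in 34 (3.94%). After a lower gene the next was lower in 124 of 946 pairs (13.1%), against 5.18% of all pairs, and higher in 38 (4.02%). Pairs with identical counts were left out. The sources used here do not say whether the numbers follow positions in the genome.

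The course of XBXL10_1g31917 and XBXL10_1g20751 was shared by few genes. Across all listed genes, 5 stood at 1 CPM or more in all 3 NF25 groups, in BMS493 explants at NF33 and in rfx6 morphants at NF38, while standing under 0.5 CPM in rfx6 morphants at NF33 and in controls at NF33 and NF38. These limits were chosen after seeing the values of both named genes. Of the 46 genes higher in BMS493 explants at NF33 that fall over the control stages, 25 were under 1 CPM in rfx6 morphants and controls at NF33 and in controls at NF38, and 6 of the 25 were at 1 CPM or more in rfx6 morphants at NF38.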
